A study of Homo sapiens with 24 samples.

Results

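Clone 28 is a derivative of the luminal, ER-positive breast cancer cell line T47D, among 3 clones in which a degron was knocked into the native *TRPS1* gene. Its 8 libraries of the 24 in the study were chosen by their sample labels, which name the clone, the treatment and the replicate, and not by any measured value. They are 4 libraries of cells given the vehicle (0.1% DMSO by volume) and 4 of cells given 100 nM dTAG-13 in DMSO, each for 90 min. The degron is a mutant FKBP domain with HA epitopes, knocked in together with a hygromycin resistance gene. In every clone of the study some genomic copies of *TRPS1* were knocked out, so that the tagged protein is the TRPS1 that is made, in DMSO as in dTAG-13. Clone 28 is a single clone, and untagged parental cells treated with dTAG-13 were not analysed here. The 4 replicates were treatments begun and harvested at separate times within a day, with both treatments harvested together, so that each DMSO library has a dTAG-13 partner with the same number. The replicates are treatments of a single clone on a single day. The p-values rest on the spread between such treatments within a clone, estimated jointly from the 24 libraries of the 3 clones. They do not measure a spread between clones.

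TRPS1 is an atypical member of the GATA family of zinc finger transcription factors. It binds GATA motifs but represses transcription, through corepressor complexes such as NuRD and CoREST, and it is highly expressed in luminal breast cells, where estrogen receptor alpha (ER, encoded by *ESR1*), GATA3 and FOXA1 maintain the cell identity. dTAG-13 bridges the FKBP domain to cereblon, the substrate receptor of an E3 ubiquitin ligase, and the tagged protein is then destroyed by the proteasome while its gene is left in place. Precision run-on sequencing (PRO-seq) labels RNA as polymerase extends it and sequences its 3' end, so that reads in a gene measure transcription in progress and not the accumulated mRNA. Within 90 min such data show changes that mRNA measurements can miss.

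The total count per library lay between 4185233 and 6363411 in Clone 28. Levels are given in CPM, counts scaled for library size by the TMM method. Luminal identity matched the label: *KRT8*, *KRT18*, *KRT19*, *ESR1*, *GATA3*, *FOXA1*, *PGR*, *CDH1* and *EPCAM* each had at least 174 counts in every library, and *TFF1*, an estrogen-induced gene of the same list, had 1 to 13. Defining basal keratins were at or near 0, with 0 to 1 counts for *KRT5*, 0 to 2 for *KRT14* and 0 to 3 for *KRT17*. Of the 10 basal and mesenchymal markers on the list, 5 passed the filter on low counts, with 57 to 114 counts for *TP63*, 40 to 71 for *COL1A1*, 18 to 37 for *ACTA2*, 17 to 26 for *ZEB1* and 6 to 17 for *CDH2*. DMSO replicate 1 stood apart in its content of small nucleolar RNA (snoRNA), which took 0.527% of its counts against 0.189% to 0.278% in the other 7 libraries. The numbers of genes called are given with and without its pair.

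*TRPS1* itself (chromosome 8 from 115408496 to 115809673 on the minus strand) stayed strongly transcribed. It had 7335, 7195, 5272 and 5183 CPM in DMSO replicates 1 to 4 and 8249.6, 7865, 6656 and 6304 CPM with dTAG-13. Replicates 1 and 2 lay above replicates 3 and 4 in both treatments, and within each pair the dTAG-13 library was the higher. The log2 fold change was 0.23 ± 0.047 (n = 4 pairs), with an adjusted p of 0.0561 in edgeR's quasi-likelihood test with pairs in the model. Here and below, ± gives the standard error from the joint fit of all 24 libraries, and not the spread of the 4 pairs alone. The threshold used throughout was an adjusted p of 0.1. The call depended on the pairing, since the same test without the pairs gave an adjusted p of 1, and it was lost without pair 1 (adjusted p = 0.107), without pair 3 (0.301) or without pair 4 (0.164). These counts read the gene and not the protein, so they are no check of the degradation.

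Of 22326 genes tested, 177 (0.793%) rose with dTAG-13 and 86 (0.385%) fell, 263 (1.18%) in all, and 1844 had an unadjusted p under 0.05. Most changes were small. The median log2 fold change was 0.29 among genes that rose and -0.29 among those that fell. Of the 177 rises, 156 were smaller than 0.5 and 3 reached 1. Of the 86 falls, 60 were smaller than 0.5 in size and 15 reached 1 in size, most of the 15 in snoRNA genes. The direction was the same in all 4 pairs for 174 of the 177 and for 81 of the 86, against 8.38% and 8.1% of all genes with 4 pairs up and 4 pairs down. The groups themselves did not overlap for 69 of the genes that rose and 52 of those that fell, against 1.55% and 1.42% of all genes in those directions. Protein-coding genes made up 138 of the rises and 63 of the falls, and long noncoding RNA genes 38 and 7. The remaining falls were mostly 14 snoRNA genes.

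These counts depended on the model. Without the pairs 10 genes (0.0448%) rose and 2 (0.00896%) fell, and DESeq2 with the pairs called 35 and 7, of which 35 and 5 were among the genes above. Leaving out a pair left 81 to 123 rises, the lowest without pair 3 and 105 without pair 4, and 26 to 83 falls, the lowest without pair 1 and 53 without pair 4. In all 4 of those fits 52 of the 177 rises and 15 of the 86 falls were called, and most genes described in detail come from these.

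**Figure D1:**
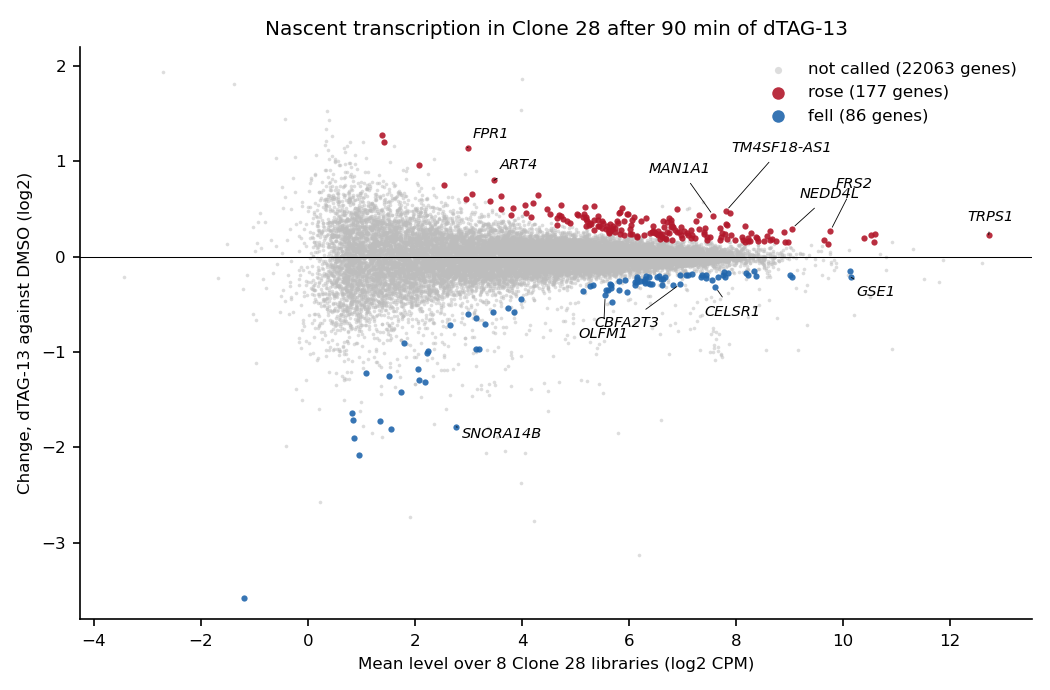
Log2 fold change with dTAG-13 (vertical axis) against mean level over the 8 Clone 28 libraries (log2 CPM, horizontal axis) for each gene tested, with the 177 genes that rose in red, the 86 that fell in blue and the rest in grey. Most called genes lie within 0.5 of zero, and 1 gene lies beyond the drawn range.

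The genes that rose with the smallest p have varied roles, among them a Golgi enzyme, secreted and surface proteins, a ubiquitin ligase and regulators of transcription. *MAN1A1* (chromosome 6 from 119177205 to 119349761 on the minus strand), a Golgi mannosidase that trims N-glycans, had 174, 163, 151 and 161 CPM in DMSO replicates 1 to 4 and 208, 227, 226 and 214 CPM with dTAG-13. All dTAG-13 libraries were above all DMSO libraries (log2 fold change 0.43 ± 0.05, adjusted p = 3.14e-07, by the quasi-likelihood test of edgeR, adjusted by Benjamini-Hochberg as is every p below). It was also called without the pairs in the model (adjusted p = 0.000108). *NEDD4L*, a ubiquitin ligase that removes the epithelial sodium channel from the membrane, had 519, 479.5, 449 and 448 CPM in DMSO replicates 1 to 4 and 592, 586, 591 and 553 CPM with dTAG-13. Its groups did not overlap either, and dTAG-13 replicate 4 was the lowest of its group (log2 fold change 0.29 ± 0.04, adjusted p = 1.01e-05).

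*PIP*, a secreted protein of apocrine and breast epithelium, had 162, 138, 121 and 117 CPM in DMSO replicates 1 to 4 and 191, 184, 188 and 161 CPM with dTAG-13. Every pair rose, and the groups overlapped only in that DMSO replicate 1 was just above dTAG-13 replicate 4 (log2 fold change 0.44 ± 0.052, adjusted p = 5.22e-07). *FSIP1*, named for its interaction with the sperm fibrous sheath, had 126, 97.4, 86.7 and 84.1 CPM in DMSO replicates 1 to 4 and 165, 125, 132.2 and 132.4 CPM with dTAG-13, with pair 1 high in both treatments and a slight overlap of the groups (log2 fold change 0.50 ± 0.057, adjusted p = 3.14e-07). *CD47*, the surface signal that restrains engulfment by macrophages, rose from a DMSO range of 84.6 to 113 CPM to 109 to 138 CPM (log2 fold change 0.39 ± 0.055, adjusted p = 2.15e-05). *ABCA12*, a lipid transporter of epithelia, rose to a like extent (log2 fold change 0.37 ± 0.053, adjusted p = 2.15e-05).

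Several regulators rose as well. *BACH1*, a heme-sensing repressor, had 308, 254, 232 and 226 CPM in DMSO replicates 1 to 4 and 397, 302, 296 and 281 CPM with dTAG-13 (log2 fold change 0.32 ± 0.043, adjusted p = 1.01e-05). *RBBP8*, whose product CtIP starts DNA end resection and is a partner of BRCA1, rose (log2 fold change 0.34 ± 0.046, adjusted p = 1.01e-05), and so did ENSG00000266850, a long noncoding RNA gene that overlaps it on the opposite strand (0.52, adjusted p = 3.24e-06). The strand setting of the counting is not given in the sources used here, so reads of this pair of genes cannot be told apart. The same limit holds for *TM4SF18-AS1*, which runs antisense to *TM4SF18* and *CPHL1P* and had the smallest p of all genes. It had 252, 179, 156 and 166 CPM in DMSO replicates 1 to 4 and 332, 237, 231 and 243 CPM with dTAG-13, and pair 1 was the highest in both groups, its DMSO library above 3 of the 4 dTAG-13 libraries (log2 fold change 0.48 ± 0.044, adjusted p = 9.64e-10). *PLK2*, a polo-like kinase induced early by growth signals, had 156, 139.7, 175 and 144 CPM in DMSO replicates 1 to 4 and 189, 183, 203 and 180.0 CPM with dTAG-13, without overlap of the groups (log2 fold change 0.30 ± 0.045, adjusted p = 6.68e-05). *FRS2*, the adaptor that couples FGF receptors to Ras signalling, also rose (log2 fold change 0.27 ± 0.042, adjusted p = 0.000216).

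By size, the largest rises among genes with a mean of at least 5 CPM were in genes that are weakly transcribed. *FPR1*, a formyl peptide receptor that guides leukocytes, had 4.72, 3.77, 6.24 and 4.71 CPM in DMSO replicates 1 to 4 and 13.6, 11.2, 9.25 and 9.65 CPM with dTAG-13. That is a 2.21-fold rise with no overlap between the groups (log2 fold change 1.15 ± 0.20, adjusted p = 0.000447). *ART4*, which carries the Dombrock blood group antigens, had 11.7, 7.75, 7.32 and 5.89 CPM in DMSO replicates 1 to 4 and 17.2, 13.3, 15.8 and 10.0 CPM with dTAG-13, and its groups overlapped in that DMSO replicate 1 lay above dTAG-13 replicate 4 (log2 fold change 0.80 ± 0.15, adjusted p = 0.00138). *DGKB*, a diacylglycerol kinase, rose from 12.2 to 17.7 CPM in DMSO to 21.2 to 25.3 CPM (log2 fold change 0.65 ± 0.12, adjusted p = 0.00179). The noncoding gene ENSG00000250195 (0.55, adjusted p = 0.000776) was called in all 4 fits without a pair, as those 3 genes were. *FUT9*, a fucosyltransferase of the Lewis X antigen (0.56, adjusted p = 0.00431), lost its call without pair 3 (0.153). The other large rises rested on fewer fits. *CDH10*, a cadherin (0.64, adjusted p = 0.0165), kept its call without pair 1 (0.0359) or pair 2 (0.0108). *VCAN*, the matrix proteoglycan versican (0.58, adjusted p = 0.0444), kept it without pair 3 (0.0323), *FPR3*, a receptor of the same family as *FPR1* (0.66, adjusted p = 0.0598), without pair 1 (0.0587), and *OAS1*, an interferon-induced antiviral enzyme (0.61, adjusted p = 0.0821), without pair 3 (0.0977). *VRTN*, a gene known for vertebral number in livestock (0.76, adjusted p = 0.1), was at the threshold and lost its call whichever pair was left out.

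**Figure D2:**
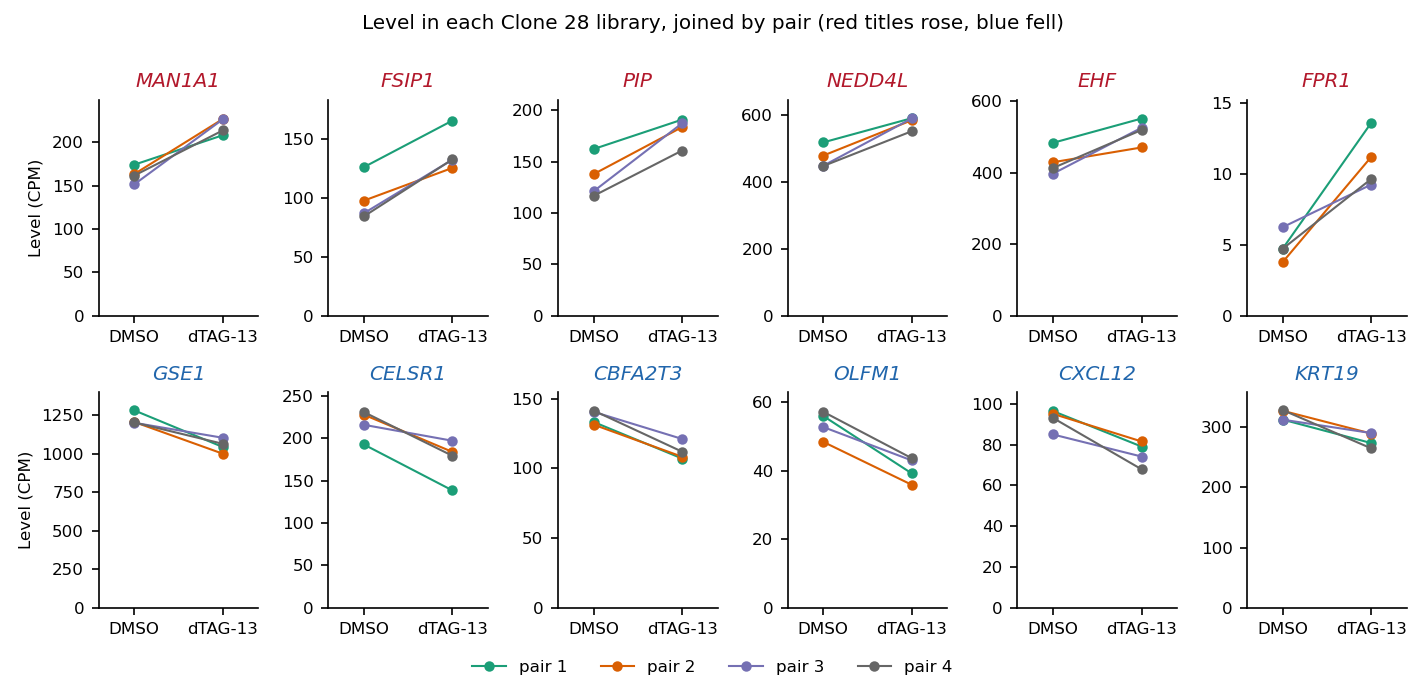
Level in CPM (vertical axis, from 0) of 6 genes that rose and 6 that fell in each of the 8 Clone 28 libraries, with lines joining the DMSO and dTAG-13 library of each pair. Every line rises in the upper row and falls in the lower row, and for *FSIP1* the DMSO library of pair 1 lies at the level of the dTAG-13 libraries of other pairs.

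Genes that fell included transcriptional corepressors. Of 40 subunits of NuRD, CoREST and other corepressor complexes tested, 3 fell and 0 rose, where 0.385% of all genes fell. DESeq2 called 1 lower, and 0 were called without the pairs in the model. The list's median log2 fold change was -0.05 against 0.00 over all genes. *GSE1* (chromosome 16 from 85169525 to 85676204 on the plus strand), a partner of the LSD1 and CoREST histone demethylase complex, had 1282, 1207, 1201 and 1204 CPM in DMSO replicates 1 to 4 and 1044, 1001, 1104 and 1065 CPM with dTAG-13. The groups did not overlap, and DMSO replicate 1 was set off from the other DMSO libraries (log2 fold change -0.22 ± 0.033, adjusted p = 8.94e-05). *BCOR*, a corepressor of BCL6 and a subunit of a variant Polycomb complex, fell (log2 fold change -0.21 ± 0.045, adjusted p = 0.00823), with its call lost without pair 3 (0.141). It was also called in both other clones, with log2 fold changes of -0.20 in Clone 35 and -0.25 in Clone 39 (adjusted p = 0.0744 and 0.0134).

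*CBFA2T3* (chromosome 16 from 88874858 to 88977207 on the minus strand), an ETO family corepressor, had 133, 131, 140.5 and 141 CPM in DMSO replicates 1 to 4 and 107, 108, 121 and 112 CPM with dTAG-13. All dTAG-13 libraries were below all DMSO libraries (log2 fold change -0.29 ± 0.049, adjusted p = 0.000442), and it passed without the pairs as well (adjusted p = 0.0953). It was the only called gene of 6 tested RUNX and ETO genes, where 0.385% of all genes fell. *OLFM1*, a secreted olfactomedin, was the other gene that fell in the fit without pairs (adjusted p = 0.0953). It had 55.9, 48.4, 52.7 and 57.2 CPM in DMSO replicates 1 to 4 and 39.2, 35.9, 43.0 and 43.6 CPM with dTAG-13 (log2 fold change -0.40 ± 0.074, adjusted p = 0.00122). *ZMIZ1*, a PIAS-like transcriptional coactivator, had 581, 575, 542 and 567 CPM in DMSO replicates 1 to 4 and 518, 469.9, 497 and 469 CPM with dTAG-13, again without overlap (log2 fold change -0.21 ± 0.038, adjusted p = 0.000697). *AUTS2*, a partner of a Polycomb complex in neurons, fell in the same way (log2 fold change -0.20 ± 0.04, adjusted p = 0.00243), as did *SEC14L2*, which encodes a lipid-binding protein (log2 fold change -0.30 ± 0.057, adjusted p = 0.00168). All 5 of these genes kept their call in each fit without a pair.

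*CELSR1*, a cadherin of planar cell polarity, had 192, 227, 216 and 231 CPM in DMSO replicates 1 to 4 and 138, 184, 197 and 179 CPM with dTAG-13. Pair 1 was low in both groups and the groups overlapped by that pair, while all 4 pairs fell (log2 fold change -0.32 ± 0.052, adjusted p = 0.000232). *CXCL12*, the chemokine of the CXCR4 receptor and itself induced by estrogen, had 96.5, 95.1, 85.0 and 93.1 CPM in DMSO replicates 1 to 4 and 79.1, 81.6, 74.2 and 67.9 CPM with dTAG-13 (log2 fold change -0.29 ± 0.059, adjusted p = 0.00445). Its groups did not overlap, and its call was lost without pair 4 (0.139). *SMAD6*, an inhibitory SMAD that dampens BMP signalling, fell (log2 fold change -0.27 ± 0.06, adjusted p = 0.0109) and lost its call without pair 1 (0.124). It was the 1 called gene of 21 in the TGF-beta and SMAD feedback list, where 0.385% of all genes fell. The median of that list was -0.05, and 19 of 21 log2 fold changes were negative, against 49.8% of all genes. *TMPRSS13*, a membrane-anchored serine protease, had 51.0, 55.7, 59.8 and 60.1 CPM in DMSO replicates 1 to 4 and 40.8, 44.3, 50.2 and 45.3 CPM with dTAG-13 (log2 fold change -0.33 ± 0.069, adjusted p = 0.00628). It was the 1 called gene of 10 such proteases, of which 9 had negative log2 fold changes, against the same 0.385% and 49.8% of all genes. DESeq2 and the fit without the pairs called 0 genes in this list and 0 in the TGF-beta and SMAD feedback list.

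Apart from snoRNA genes, which are described further on, the protein-coding genes with the largest falls and a mean of at least 5 CPM were thinly covered and rested on fewer of the fits. *MGAT5B*, an N-glycan branching enzyme (log2 fold change -0.72 ± 0.19, adjusted p = 0.0511), kept its call without pair 2 (0.053). *PLEKHF1*, which encodes an endosomal protein (log2 fold change -0.71 ± 0.17, adjusted p = 0.0212), kept it without pair 2 (0.0678) or pair 3 (0.0422), *LHX4*, a LIM homeobox gene (-0.54, adjusted p = 0.0319), without pair 3 (0.058), and *NECAB2*, a neuronal calcium-binding protein (-0.58, adjusted p = 0.0356), without pair 3 (0.0909) or pair 4 (0.0921). *PLEKHF1* had 11.7, 11.7, 12.5 and 13.6 CPM in DMSO replicates 1 to 4 and 5.73, 7.76, 9.41 and 7.14 CPM with dTAG-13, with no overlap. The lowest log2 fold change of all, -3.57 for the scavenger receptor gene *OLR1*, came from 0 to 5 counts per library and was chosen for mention after its value was seen.

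The study had sorted genes into those activated or repressed gradually or transiently, by a time course in the same clone with dTAG-13 and a related degrader, dTAGV-1, in a separate set of libraries. These lists share the clone and dTAG-13 with the libraries here, so they are not evidence from other cells. Of 236 gradually activated genes 79 rose and 0 fell, and of 144 transiently activated genes 22 rose and 0 fell. Of 217 gradually repressed genes 27 fell and 0 rose, where 0.793% of all genes rose and 0.385% fell. Of 478 transiently repressed genes 15 fell and 6 rose, and the 6 included *CACNB4*, *SGMS1*, *SLC7A8*, *TAOK3* and *ARRB1*. Counts moved with the pairs used: the 79 became 35 without pair 3 and 51 without pair 4, the 22 became 11 without pair 1, pair 3 or pair 4, the 27 became 13 without pair 1 and 16 without pair 2, and the 15 became 3 without pair 1, 9 without pair 2 and 6 without pair 4. With DESeq2 they were 16, 6, 4 and 1, and without the pairs in the model 5, 1, 2 and 0. The median log2 fold changes were 0.16, 0.05, -0.12 and -0.03 in that order, against 0.00 over all genes. Log2 fold changes were positive for 93.6% and 73.6% of the activated lists and negative for 87.6% and 63.8% of the repressed lists, against 50.2% and 49.8% of all genes. Of the genes that rose, 70 of 177 were in none of the 4 lists, and of those that fell 44 of 86 were in none.

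*SGMS1*, a sphingomyelin synthase, had 299.8, 331, 299 and 299 CPM in DMSO replicates 1 to 4 and 349.9, 364, 360.5 and 341 CPM with dTAG-13 (log2 fold change 0.20 ± 0.041, adjusted p = 0.00387). *CACNB4*, a subunit of voltage-gated calcium channels, had 62.9, 58.7, 55.1 and 56.6 CPM in DMSO replicates 1 to 4 and 74.8, 79.5, 70.6 and 68.5 CPM with dTAG-13 (log2 fold change 0.33 ± 0.065, adjusted p = 0.00222). Neither gene's groups overlapped, and both rose while on the list of transiently repressed genes.

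The study's ER target genes are genes induced by estrogen in PRO-seq of hormone-starved parental T47D cells, which the study split by the effect of TRPS1 depletion into activated and repressed targets. The called members moved, with 1 exception, in the direction of their lists. Of 65 activated ER targets 15 rose and 1 fell, and of 58 repressed ER targets 14 fell and 0 rose, where 0.793% of all genes rose and 0.385% fell. The split was made on the same clone, so its direction is not independent evidence. The 15 include *FSIP1*, *RBBP8*, *ABCC13*, *FRS2*, *RMST*, *HSPB8*, *TPD52L1*, *RASGRP1* and *RERG*. The 14 include *CELSR1*, *CBFA2T3*, *CXCL12*, *GSN*, *KRT19*, *PAK4*, *CASZ1*, *TJP3*, *CXXC5*, *HOXC6* and *HOXC4*. *FLJ12825*, a noncoding RNA gene beside the HOXC cluster, is on the activated list and fell (log2 fold change -0.35 ± 0.065, adjusted p = 0.00137). The medians were 0.10 and -0.16. Over pairs 1 to 4 the median change of the activated targets was 0.08, 0.04, 0.14 and 0.11, and that of the repressed targets -0.17, -0.14, -0.07 and -0.16. Pair 3 held the largest change of the activated list and the smallest of the repressed list, and every pair had the sign of the whole. Without pair 1, 14 activated targets rose and 6 repressed targets fell, without pair 3 it was 9 and 13, and without pair 4 it was 11 and 9. DESeq2 called 8 and 3, and without the pairs in the model 0 and 1 were called.

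Within the repressed ER targets, *KRT19*, a luminal keratin, had 313, 327, 313 and 329 CPM in DMSO replicates 1 to 4 and 274, 289.5, 290.4 and 265 CPM with dTAG-13 (log2 fold change -0.20 ± 0.043, adjusted p = 0.00898), with no overlap. *GSN*, which encodes the actin-severing protein gelsolin, had 77.8, 94.7, 75.3 and 75.2 CPM in DMSO replicates 1 to 4 and 60.7, 73.1, 71.5 and 63.7 CPM with dTAG-13, and DMSO replicate 2 was set off above its group (log2 fold change -0.26 ± 0.056, adjusted p = 0.00823). *CASZ1*, a zinc finger factor of epithelial differentiation, fell too (log2 fold change -0.21 ± 0.05, adjusted p = 0.0164). The calls were lost without pair 4 (0.236) for *KRT19*, without pair 1 (0.1) or pair 2 (0.148) for *GSN* and without pair 1 (0.347) for *CASZ1*. Among the activated ER targets *ABCC13*, an ABC transporter pseudogene, had 88.0, 70.8, 51.2 and 66.6 CPM in DMSO replicates 1 to 4 and 104, 91.6, 82.6 and 84.7 CPM with dTAG-13 (log2 fold change 0.41 ± 0.063, adjusted p = 8.85e-05). *RERG*, a Ras-like growth inhibitor named for its regulation by estrogen (log2 fold change 0.25 ± 0.061, adjusted p = 0.0701), lost its call without pair 2 (0.134), pair 3 (0.308) or pair 4 (0.299). *RASGRP1*, which activates Ras (log2 fold change 0.26 ± 0.06, adjusted p = 0.0164), lost its call without pair 3 (0.229) or pair 4 (0.132).

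**Figure D3:**
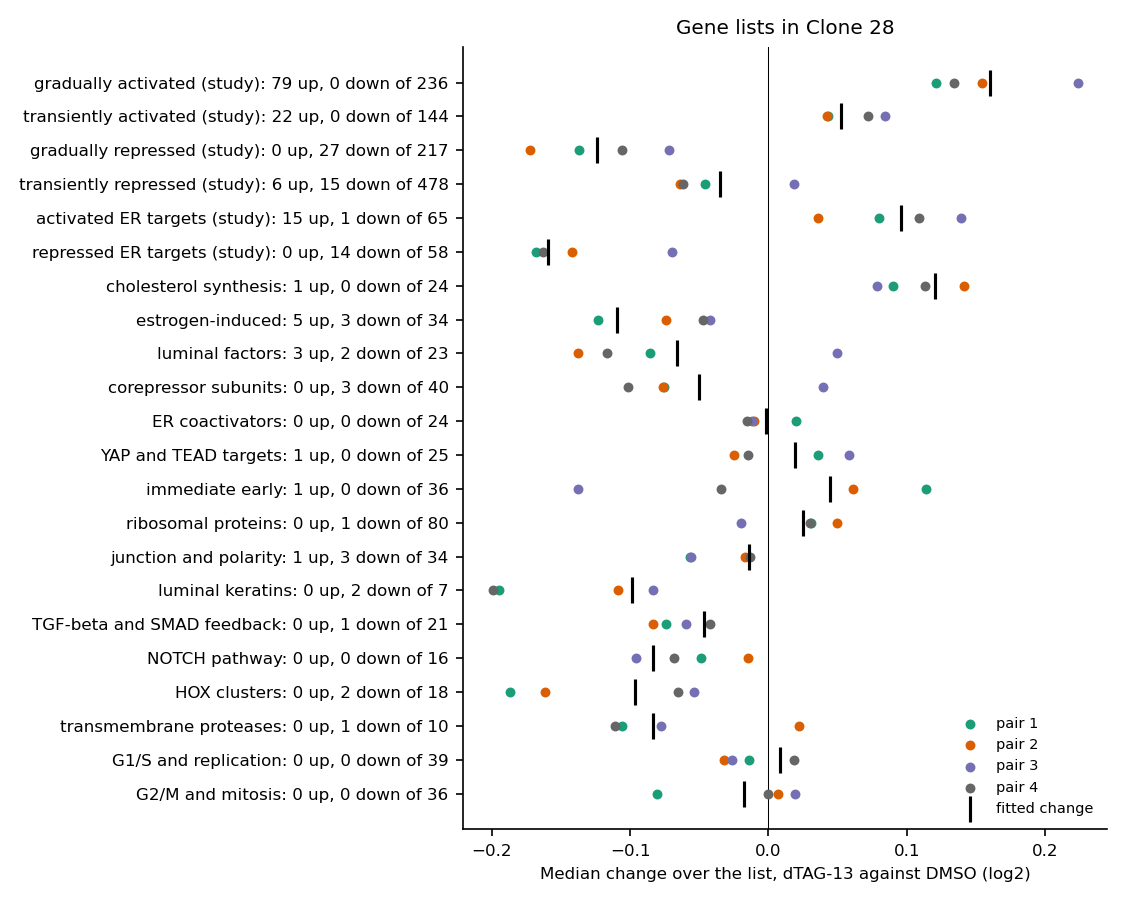
Median log2 fold change over the tested genes of 22 lists in Clone 28 (horizontal axis), with black bars for the fitted change, coloured points for each pair, and counts of genes that rose and fell beside each name. The 6 lists marked as from the study lie on the side of their names in the fitted change.

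Called genes on a textbook list of genes classically induced by estrogen went both ways. Of 34 tested, 5 rose and 3 fell (3 and 3 without pair 3, 4 and 1 without pair 4, 2 and 0 with DESeq2, and 0 of each without the pairs in the model), where 0.793% of all genes rose and 0.385% fell. The list's median was -0.11, with -0.12, -0.07, -0.04 and -0.05 over pairs 1 to 4. Log2 fold changes were negative for 23 of the 34 (67.6%), against 49.8% of all genes, and 19 had an unadjusted p under 0.05. Besides *RBBP8*, *RERG* and *TPD52L1*, the 5 that rose were *PDZK1*, a scaffold for membrane transporters (log2 fold change 0.28 ± 0.052, adjusted p = 0.0016), and *HSPB8*, a small heat shock protein (log2 fold change 0.26 ± 0.049, adjusted p = 0.00131). *CXCL12*, *KRT19* and the lysosomal protease gene *CTSD* fell. *GREB1*, an ER cofactor and target, had 1009.6, 924, 842 and 884 CPM in DMSO replicates 1 to 4 and 938, 867, 916 and 859.7 CPM with dTAG-13 and was not called (log2 fold change -0.03 ± 0.041, adjusted p = 0.927). *PGR*, the progesterone receptor gene, had 2154, 2227, 1561 and 1597 CPM in DMSO replicates 1 to 4 and 1854, 1890.4, 1630.5 and 1409 CPM with dTAG-13, higher in pairs 1 and 2 than in pairs 3 and 4, and in 1 of 4 pairs its dTAG-13 library was the higher (log2 fold change -0.14 ± 0.044, adjusted p = 0.226). *MYC* (0.09, adjusted p = 0.802) and *CCND1* (-0.16, adjusted p = 0.231), a pair of growth genes induced by estrogen, were not called.

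Of 23 luminal transcription factor genes, 3 rose, *TRPS1* and *EHF* among them, and 2 fell (*CASZ1* and *SPDEF*), where 0.793% of all genes rose and 0.385% fell. Without pair 1 it was 2 and 0, and 0 were called either way without the pairs in the model. *EHF*, an epithelial ETS factor, had 483, 429, 397 and 413 CPM in DMSO replicates 1 to 4 and 551, 470.4, 525 and 519 CPM with dTAG-13 (log2 fold change 0.26 ± 0.041, adjusted p = 0.000102). *SPDEF*, an ETS factor of luminal and secretory cells, fell (log2 fold change -0.20 ± 0.052, adjusted p = 0.0522), but no fit without a pair called it. *ESR1*, which encodes ER, had 1719.9, 1912, 1421 and 1471 CPM in DMSO replicates 1 to 4 and 1742, 1826, 1629 and 1458 CPM with dTAG-13 and moved up in 2 of 4 pairs (0.03, adjusted p = 0.908). *GATA3* (-0.08, adjusted p = 0.624) and *FOXA1* (-0.000938, adjusted p = 1), the other defining luminal factors, were not called. The direction of *ESR1* and of *FOXA1* turned under some settings given in the closing section.

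Genes of epithelial form moved both ways. Of 34 tight junction and polarity genes, of which 1 rose and 3 fell where 0.793% and 0.385% of all genes did, *PATJ*, a scaffold of the Crumbs complex, rose (log2 fold change 0.20 ± 0.034, adjusted p = 0.000632). *CELSR1*, *TJP3*, a tight junction scaffold (log2 fold change -0.23 ± 0.058, adjusted p = 0.0315), and *DLG5*, a polarity scaffold (log2 fold change -0.14 ± 0.04, adjusted p = 0.0701), fell. *TJP3* lost its call without pair 1 (0.276) or pair 2 (0.274), and *DLG5* whichever pair was left out. Of 7 luminal keratin genes 2 fell, *KRT19* and *KRT7*, and 0 rose, where 0.385% of all genes fell. Without pair 4, 0 genes of this list were called lower. *KRT7* had 86.8, 81.7, 85.8 and 87.8 CPM in DMSO replicates 1 to 4 and 70.5, 69.3, 80.4 and 70.6 CPM with dTAG-13, its groups did not overlap (log2 fold change -0.23 ± 0.057, adjusted p = 0.0264), and its call was lost without pair 1 (0.202), pair 2 (0.115) or pair 4 (0.244). Of 18 tested HOX genes *HOXC6* (log2 fold change -0.19 ± 0.05, adjusted p = 0.0387) and *HOXC4* (log2 fold change -0.21 ± 0.059, adjusted p = 0.084) fell and 0 rose, where 0.385% of all genes fell. DESeq2 and the fit without the pairs called 0 genes in the HOX list and 0 in the luminal keratin list. *HOXC6* kept its call only without pair 2 (0.0803) and *HOXC4* only without pair 3 (0.0824), so neither was called without pair 1. The annotation places *HOXC6* across the start of *HOXC4* on the same strand, so the counts of these neighbours may share reads.

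In the Wnt feedback list of 17 genes 2 rose and 0 fell, where 0.793% of all genes rose and 0.385% fell. DESeq2 called 0 of the list higher, and the fit without the pairs called 1. *RNF43*, a ubiquitin ligase that clears Frizzled receptors from the cell surface, had 111, 124, 105 and 109 CPM in DMSO replicates 1 to 4 and 131.9, 138, 149.9 and 137 CPM with dTAG-13, without overlap (log2 fold change 0.32 ± 0.056, adjusted p = 0.000697). *FZD4*, which encodes a Frizzled receptor, had 30.6, 32.1, 35.1 and 36.9 CPM in DMSO replicates 1 to 4 and 40.8, 42.6, 42.5 and 43.4 CPM with dTAG-13 (log2 fold change 0.33 ± 0.081, adjusted p = 0.0297) and lost its call without pair 1 (0.187) or pair 2 (0.197). Of 24 cholesterol synthesis genes *SC5D*, a sterol desaturase, rose. It had 125, 126, 124 and 128 CPM in DMSO replicates 1 to 4 and 136, 150.2, 139 and 164 CPM with dTAG-13 (log2 fold change 0.22 ± 0.053, adjusted p = 0.0194), and its call was lost without pair 2 (0.133) or pair 4 (0.317). Over that list 22 of 24 log2 fold changes were positive, against 50.2% of all genes, 0 genes fell, and the median was 0.12. DESeq2 and the fit without the pairs called 0 cholesterol synthesis genes. *HMGCS1*, a synthase early in the pathway, had 55.2, 67.2, 65.4 and 60.1 CPM in DMSO replicates 1 to 4 and 70.0, 71.7, 67.7 and 81.4 CPM with dTAG-13. Its groups did not overlap, but it did not pass the test (adjusted p = 0.227).

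Other programmes showed few or no called genes. Single genes rose among 25 YAP and TEAD targets (*TGFB2*), 36 immediate early genes (*PLK2*), 26 heat shock genes (*HSPB8*), 28 genes of the ATF4 stress response (*TRIB3*), 40 interferon response genes (*OAS1*), 23 genes of the cereblon ligase and FKBP list (*IKZF2*) and 13 genes of the epithelial sodium channel and its regulators (*NEDD4L*). As shares these run from 2.5% of the interferon list to 7.69% of the sodium channel list, where 0.793% of all genes rose. Each share rests on 1 gene, so nothing is read from it about the list. *TGFB2* kept its call only without pair 1 (0.0567) or pair 4 (0.0841), *TRIB3* only without pair 3 (0.0259) and *IKZF2* only without pair 1 (0.0611). On a list of 36 receptor tyrosine kinases, adaptors and Ras regulators, *FRS2*, *RASGRP1* and *RERG* rose (8.33%, where 0.793% of all genes rose) and 0 fell. DESeq2 called 1 of this list higher, the fit without the pairs 0, and the fits without pair 3 or pair 4 1 each. *CRBN*, the cereblon gene, was not called (-0.03, adjusted p = 0.959). Of 80 cytosolic ribosomal protein genes 1 fell, *RPS13* (log2 fold change -0.34 ± 0.087, adjusted p = 0.0439), where 0.385% of all genes fell. It kept its call only without pair 2 (0.0498) and lost it without pair 1 (0.368), and it holds a snoRNA gene that fell on the same strand. The quasi-likelihood test of edgeR called 0 genes, as did DESeq2, in each of the lists that follow, and counts at an unadjusted p under 0.05 are given with them. These were 39 (2 at unadjusted p) genes of the G1/S transition and DNA replication, 36 (1 at unadjusted p) of mitosis, 24 (2 at unadjusted p) ER coactivators, 16 (3 at unadjusted p) NOTCH genes, 34 (3 at unadjusted p) of hypoxia and glycolysis, 18 (2 at unadjusted p) NF-kappaB targets and 24 (2 at unadjusted p) of the circadian clock. The mitochondrial genome, with 15 (1 at unadjusted p) genes and no call either, had medians of -0.17, 0.04, 0.00 and -0.34 over pairs 1 to 4, so that pairs 1 and 4 carried the fitted median of -0.14, and medians of 0.13 in both Clone 35 and Clone 39. In counts simulated for Clone 28 over 22180 genes, log2 changes of 0.5 were recovered for 118 of 200 genes, and over 22159 genes changes of 0.25 for 5 of 200. The 200 genes were drawn at random from all genes tested and not from these lists. The recovery therefore does not give the share of changes that would be detected within the lists, and small changes in them may have been missed.

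Some called genes lay near others called in the same direction. Of the 177 genes that rose, 35 (19.8%) had another that rose within 100 kb without overlapping it, against 1.81% of all genes, and 0 had a gene that fell. Of the 86 that fell, 8 (9.30%) had another that fell, against 1.42% of all genes, and 0 had a gene that rose. Genes that overlap one another were each counted, as *HOXC6* and *HOXC4* were for the same neighbour *FLJ12825*. These are therefore numbers of genes and not of separate neighbourhoods. The neighbourhoods were chosen for mention after their values were seen, and many of these genes lost their call when a pair was left out. On chromosome 19, *FPR1*, *FPR3* and the zinc finger genes *ZNF577*, *ZNF649*, *ZNF613*, *ZNF350*, *ZNF432* and *ZNF616*, with the antisense gene *ZNF350-AS1*, all rose between 51745172 and 52139938. The zinc finger genes of this group, which encode KRAB zinc finger proteins, rose by log2 fold changes of 0.25 for *ZNF432* to 0.42 for *ZNF616*. *FPR3* overlaps *FPR1* and *ZNF577* on the other strand, and *ZNF577* overlaps *ZNF649* on the same strand, so some of their reads may be shared. The same limit holds for *FPR1*, which also overlaps *FPR2* on the other strand and ENSG00000286236 on the same strand.

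On chromosome 21 *RBM11*, *ABCC13* and *HSPA13* rose side by side, with log2 fold changes of 0.43 for *RBM11*, 0.41 for *ABCC13* and 0.23 for *HSPA13*. *ART4* and *MGP*, the matrix Gla protein gene (0.30, adjusted p = 0.0194), rose together on chromosome 12. *GSE1* fell with its neighbour *C16orf74* (-0.25, adjusted p = 0.00243), *HOXC6* and *HOXC4* with *FLJ12825*, and *CXXC5*, a zinc finger regulator of Wnt signalling (-0.22, adjusted p = 0.0368), with the noncoding gene ENSG00000249526 (-0.30, adjusted p = 0.00846). Protein-coding genes that rose spanned a median of 111 kb and those that fell 61.0 kb, against 37.9 kb over all protein-coding genes tested. Their median levels were also higher, at 6.66 and 6.39 log2 CPM against 5.09, and the part of length and depth in the calls was not tested.

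The 14 snoRNA genes that fell sit within other genes and were short and thinly covered, with mean levels of 1.78 to 9.12 CPM. All 14 were highest in DMSO replicate 1, the library with the high snoRNA share, as were 199 of all 214 snoRNA genes tested. A pair of them, both named *SNORA16A*, had nearly the same counts, so that reads of these copies may be shared. *SNORA14B* (chromosome 1 from 235127803 to 235127937 on the minus strand), within *TOMM20*, had 19.1, 8.38, 10.1 and 5.11 CPM in DMSO replicates 1 to 4 and 3.82, 3.62, 2.82 and 1.54 CPM with dTAG-13 (log2 fold change -1.78 ± 0.24, adjusted p = 1.05e-05). Its groups did not overlap, and it was the 1 of the 14 that was called without pair 1. Over all snoRNA genes the median log2 fold change was -0.68, and -0.39 without pair 1, against 0.12 in Clone 35 and 0.07 in Clone 39. Of the 15 genes that hold these snoRNA genes on the same strand, *RPS13* fell and 0 rose, and *TOMM20* had a log2 fold change of -0.03. Of the 63 protein-coding genes that fell, 19 were called without pair 1. What set DMSO replicate 1 apart was not tested.

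**Figure D4:**
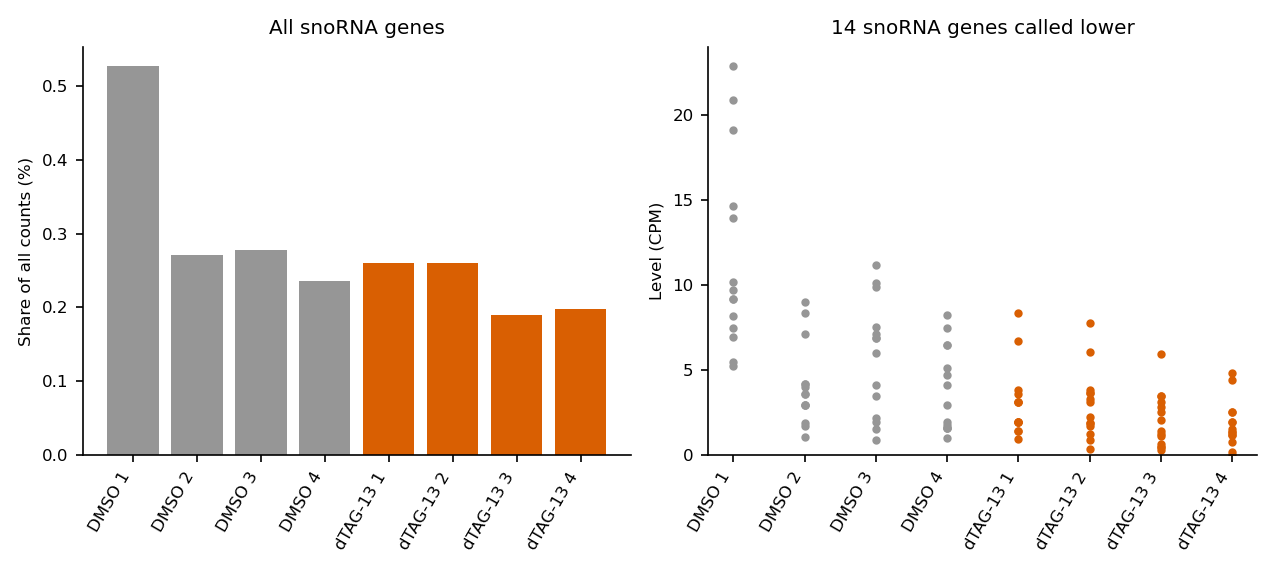
Left, share of all counts in snoRNA genes (percent, vertical axis from 0) in each Clone 28 library. Right, level in CPM of the 14 snoRNA genes that fell, with a point for each gene and library. DMSO replicate 1 has 0.527% on the left and the highest point of every gene on the right.

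The other clones have their own DMSO libraries, and those libraries were not in the contrast that called these genes. They did enter the filter on low counts, the scaling and the estimate of the spread behind the calls. Of the 177 genes that rose in Clone 28, 168 had a positive log2 fold change in Clone 35, 163 in Clone 39 and 154 (87.0%) in both, against 30.4% of all genes whose sign was the same in all 3 clones. Of the 86 that fell, 70, 66 and 58 (67.4%) were negative. Over all genes the sign matched that of Clone 28 for 54.3% in Clone 35 and 53.9% in Clone 39. The median change of the 177 was 0.29 in Clone 28, 0.16 in Clone 35 and 0.14 in Clone 39, and that of the 86 was -0.29, -0.10 and -0.10. Since the genes were called in Clone 28, their larger size there is partly set by that choice. In Clone 35, 16 of the 177 also rose by the test, where 18 (0.0806%) of all genes did, and in Clone 39 8 did, where 12 (0.0537%) of all genes did. Of the 86 that fell, 2 fell in Clone 35, where 3 (0.0134%) of all genes did, and 1 in Clone 39, where 4 (0.0179%) of all genes did.

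*TM4SF18-AS1* rose in all 3 clones, with log2 fold changes of 0.28 in Clone 35 and 0.29 in Clone 39 (adjusted p = 0.000732 and 0.00111). *PIP* did so too, with 0.25 in Clone 35 and 0.40 in Clone 39 (adjusted p = 0.051 and 0.0134), as did *RBBP8*, with 0.24 in Clone 35 and 0.20 in Clone 39 (adjusted p = 0.0131 and 0.0759). *MAN1A1* changed by 0.27 in Clone 35 and 0.19 in Clone 39, past the test in Clone 35 (adjusted p = 0.00811) and not in Clone 39 (0.756). *ART4* was close to its Clone 28 value in Clone 35 and called there, with 0.74 in Clone 35 and 0.40 in Clone 39 (adjusted p = 0.0064 and 0.632). *FZD4* changed by 0.01 in Clone 35 and -0.02 in Clone 39, with no call in either clone. *GSE1* changed by -0.14 in Clone 35 and -0.14 in Clone 39 (adjusted p = 0.113 and 0.113 by the same test). *CBFA2T3* changed by -0.20 in Clone 35 and -0.14 in Clone 39 (adjusted p = 0.118 and 0.664). Neither gene was called in either clone.

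A contrast of the change in Clone 28 with the mean change in Clones 35 and 39 tested the difference itself. It called 1 gene of 22326 (0.00448%), *SNORA14B*, with a difference of -1.81 (adjusted p = 0.0128), and 1080 genes had an unadjusted p under 0.05. Without pair 1 it called 0 genes, without pair 2 it called 13, and DESeq2 called 0. With all libraries, no protein-coding gene passed this test of a difference between the clones.

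**Figure D5:**
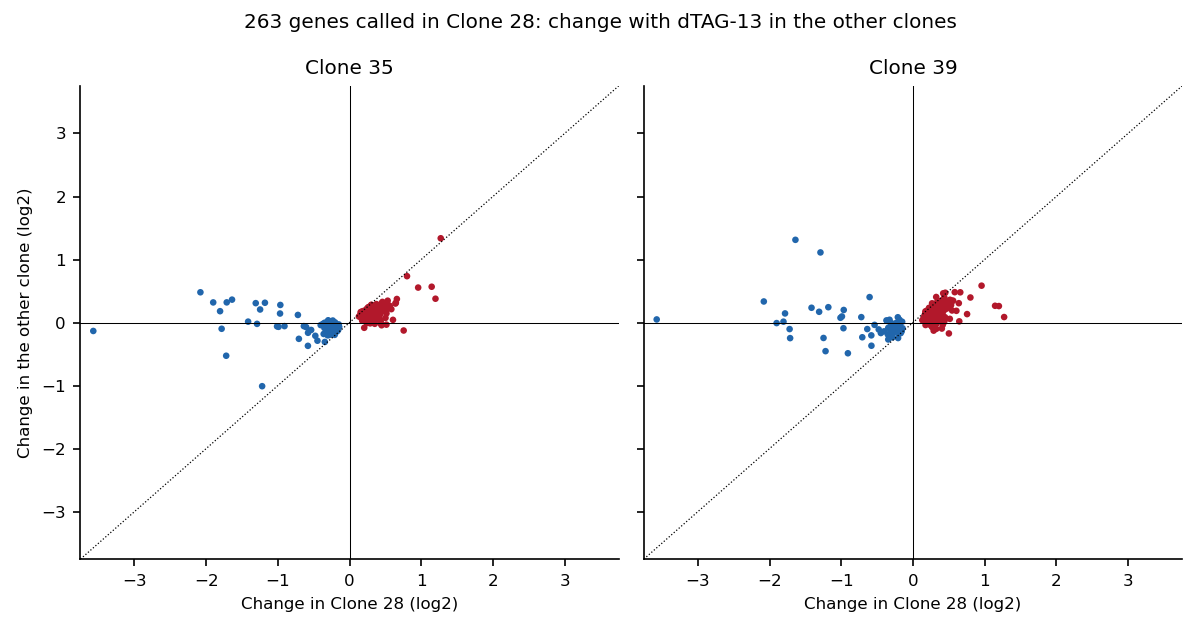
Log2 fold change with dTAG-13 in Clone 35 (left) and Clone 39 (right, vertical axes) against that in Clone 28 (horizontal axes) for the 263 genes called in Clone 28, with genes that rose in red, genes that fell in blue and a dotted line where the values are equal. Most red points are above zero in both panels, and the strongest falls, mostly snoRNA genes, lie near zero or above it in the other clones.

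Promoters were read from RefSeq (build GRCh38.p14) as the 250 bases before the start site, for genes that have a single start in the RefSeq table. They were searched on both strands for the GATA motif in 4 forms, of which the first was AGATAA, the second was TGATAA, the third was AGATAG and the last was TGATAG. By symbol, 76 of the 177 genes that rose matched such a promoter, 26 of the 86 that fell, and 9759 of all 22326 genes tested. The motif was in 18 of the 76 (23.7%), 1 of the 26 (3.85%) and 1370 of the 9759 (14.04%), and in 23.7% of all 22114 genes with a single start in the table. AGGTCA, the core that ER recognises as a pair, was in 7 of the 76 (9.21%), 4 of the 26 (15.4%) and 8.85% of the 9759. The windows cover promoters and no enhancers, and a match is a run of letters and not a measured site.

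Promoters of only part of the genes described above were ranked by GATA matches. The promoters shown are those with the most matches among the ranked genes that rose, and that of the 1 that fell with a match. They are printed 5' to 3' on the strand of the gene with the GATA matches in capitals. *ART4* (chr12:14843527-14843776, minus strand) has 3 matches, which begin 109, 37 and 7 bases before the start site. *CDH10* (chr5:24644979-24645228, minus strand) has 2, which begin 245 and 181 bases before it, and *GSE1* (chr16:85613072-85613321, plus strand) has 1, which begins 8 bases before the start.
ART4: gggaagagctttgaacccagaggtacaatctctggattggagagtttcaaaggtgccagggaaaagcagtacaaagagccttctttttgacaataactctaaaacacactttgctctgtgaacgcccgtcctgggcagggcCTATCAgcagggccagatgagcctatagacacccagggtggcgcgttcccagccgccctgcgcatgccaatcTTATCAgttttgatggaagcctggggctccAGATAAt
CDH10: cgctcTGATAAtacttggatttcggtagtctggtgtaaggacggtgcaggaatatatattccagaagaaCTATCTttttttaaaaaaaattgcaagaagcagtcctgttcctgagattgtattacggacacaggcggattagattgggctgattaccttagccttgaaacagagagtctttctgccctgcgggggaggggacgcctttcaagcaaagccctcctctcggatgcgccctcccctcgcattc
GSE1: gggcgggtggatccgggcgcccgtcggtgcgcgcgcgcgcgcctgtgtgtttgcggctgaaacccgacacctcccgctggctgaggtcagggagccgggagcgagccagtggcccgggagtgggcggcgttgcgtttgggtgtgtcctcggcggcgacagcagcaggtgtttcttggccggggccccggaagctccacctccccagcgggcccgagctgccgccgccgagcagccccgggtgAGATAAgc
The *GSE1*, *FPR1* and *CBFA2T3* starts that RefSeq uses lie within the spans that GENCODE gives these genes. Sequence before any other start of these genes was not searched. By these letters *MAN1A1*, *PIP*, *FSIP1*, *FPR1* and *CBFA2T3* hold no match in the same window.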

How the data were processed

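PRO-seq was measured in 24 libraries, of which the 8 of Clone 28 form 4 pairs of DMSO and dTAG-13 by replicate number. The deposited values are raw read counts per gene, which the authors made from reads aligned to hg38. Per the labels of the submitters' processing notes, cutadapt 1.8.1, Bowtie2 2.4.4 and SAMtools 1.9 were used. The gene windows, strand setting and annotation of the counting are not given in the sources used here. Of 60605 gene identifiers, 60463 matched GENCODE release 44, from which coordinates and gene types were taken.

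Counts were tested in R 4.3.3 with edgeR 4.0.16 (quasi-likelihood, robust, TMM scaling, filterByExpr with a minimum count of 10) over all 24 libraries, with a term for each clone and replicate number and a dTAG-13 effect for each clone, which leaves 9 residual degrees of freedom. Benjamini-Hochberg adjustment ran over all 22326 genes kept, with calls at 0.1. The pairing comes from the shared collection times, and deviations of same-numbered libraries correlated at 0.256, 0.101, 0.166 and 0.217, against -0.235 to 0.160 for other numbers. Libraries of a group differed beyond sampling noise (chi-square per degree of freedom of 1.65 to 5.91). The script was tested on simulated data.

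Genes named were, among calls with all 4 pairs in the same direction, the 10 largest changes each way at a mean of at least 5 CPM, the 10 smallest p each way, up to 4 called genes per list, 12 set genes whatever their values, and up to 5 calls of the difference between clones. Other genes, such as further called members of a list and neighbours, were chosen for mention after their values were seen. Members, lists and rules were chosen with earlier results of these data known. The gene lists of the study come from its time course in Clone 28, those of ER targets also from estrogen treatment of parental cells, and the others were drawn up from general knowledge. Alternatives were DESeq2 1.42.0, RLE size factors, library totals, other filters, a threshold of 0.05, the Clone 28 libraries alone, no pairs, and each pair left out. Promoters came from RefSeq (GRCh38.p14) by symbol. The ranking of single promoters by GATA matches left out some genes described, *TRPS1*, *MGP*, *RBM11* and *HSPA13* among them. Some genes that the rule names are not reported here.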

Additional observations from a re-analysis of the deposited data

Results flagged for a closer look

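In 10 of 172 groups of 4 libraries of named genes, 1 library lay apart from the other 3 by Dixon's criterion. Chance sets apart about 1 in 20 such groups, or 8.6 of 172, so the number is near that. DMSO libraries set apart were replicate 2 of *CDH10* (14.9 CPM), of *SGMS1* (331 CPM), of *GSN* (94.7 CPM) and of *GATA3* (985 CPM), each the highest of its group, and replicate 1 of *GSE1* (1282 CPM), also the highest. With dTAG-13 they were replicate 1 of *TM4SF18-AS1* (332 CPM) and of *RASGRP1* (108 CPM), replicate 2 of *AUTS2* (292 CPM), replicate 3 of *KRT7* (80.4 CPM) and replicate 4 of *NEDD4L* (553 CPM).

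The change of *SNORA14B* in Clone 28 differed from the mean change in Clones 35 and 39 by -1.81 on the log2 scale (adjusted p = 0.0128, edgeR's quasi-likelihood test of the difference). Its log2 fold change was -1.78 in Clone 28, lower in 4 of 4 pairs, and -0.10 in Clone 35 and 0.14 in Clone 39. DMSO replicate 1, which held the highest share of snoRNA counts, was the highest of its libraries, and without pair 1 the contrast called 0 genes. The part of that library in the difference was not tested further.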

How the results depend on the processing

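The block for the pairs decided most calls. With no replicate block, 10 genes rose, 2 fell and 0 differed between the clones, and *TRPS1* changed by 0.22 (adjusted p = 1, edgeR's quasi-likelihood test). DESeq2 called 35, 7 and 0. Without a filter on low counts 156 genes fell and 49 differed, with at least 10 counts in every library 0 differed, and the 8 libraries of Clone 28 alone gave 183 falls. Leaving out each pair in turn gave 81 to 123 rises, the lowest without pair 3, 26 to 83 falls, the lowest without pair 1, and 0 to 13 differences, with the 0 without pair 1 and the 13 without pair 2. *TRPS1* then changed by 0.19 to 0.26 and lost its call without pairs 1, 3 or 4, as it did at a threshold of 0.05 (0.23). *ESR1* changed by -0.0195 without pair 3, *FOXA1* by 0.00895 with library totals, 0.00276 without a filter, 0.00012 without the block, and -0.0787 without pair 3 to 0.0508 without pair 2 (0.0282 without pair 1), and *CRBN* by -0.113 without pair 3 to 0.0649 without pair 2 (0.0041 without pair 1). The other settings kept the number of rises and falls within 1.5 times. Beyond what the construction of a setting changes, such as fewer libraries, the cause was not tested. Depth limits the reading of genes under 5 CPM, where a library of Clone 28 holds few counts.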
